A study of Homo sapiens with 3 samples.

Results

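Peaks of acetylated lysine 27 of histone H3 (H3K27ac) that lay inside protein-coding genes, away from the ends of any protein-coding gene, and were called in both H3K27ac libraries of A2780 cells numbered 2930 of the 17841 peaks of the BPP library (16.4%). They were chosen as BPP peaks on chromosomes 1 to 22 and X that shared at least 1 bp with a CTR peak, overlapped no IgG peak, overlapped the span of a protein-coding gene and touched no window of 1 kb on either side of any protein-coding gene's ends. A2780 is an established human ovarian carcinoma line, and the mark was profiled by CUT&Tag, in which a transposase tethered to antibody-bound chromatin tags the DNA beside it. The BPP library came from cells treated with BPP, a peptide described in the series design as a competitor for the site at which BIN2 is phosphorylated. The CTR library was made with the same antibody from control cells, whose treatment the sources used here do not give (the design names a TAT peptide for RNA-seq), and the IgG library measured background. All 3 libraries came from the same line without any labelled genetic change, with 1 library per group, so that no difference between BPP and CTR had a replicate check.

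H3K27ac is deposited by the acetyltransferases p300 and CBP, is removed by histone deacetylases, and marks active promoters and enhancers. Inside a gene the mark can sit on an enhancer in an intron, on a promoter of a shorter transcript of the same gene, or on the promoter of a non-coding gene that shares the locus. A gene span runs from the outermost start to the outermost end of all its transcripts, so promoters of inner transcripts fall inside it.

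The lists of starts in RefSeq placed some of the strongest shared peaks inside genes on such inner promoters, and the sequences of 7 of these are shown because the results on start sites turn on them. Each window holds 250 bases before the listed start and 50 from it, on GRCh38.p14, 5′ to 3′ on the strand of the gene, and base 251 is the start. Capitals mark a GC box (GGGCGG or CCGCCC, the core bound by SP and KLF factors), a CCAAT box (CCAAT or ATTGG, bound by NF-Y) or an ETS core (CGGAAG or CTTCCG), wherever a script found these letters. The windows are PMVK at chr1:154936670-154936969 on the minus strand, PIK3R3 at chr1:46132746-46133045 on the minus strand, EPC1 at chr10:32347109-32347408 on the minus strand, PSMA1 at chr11:14520337-14520636 on the minus strand, TCP11L2 at chr12:106302483-106302782 on the plus strand, ATG101 at chr12:52069728-52070027 on the plus strand and CANX at chr5:179698177-179698476 on the plus strand.
PMVK: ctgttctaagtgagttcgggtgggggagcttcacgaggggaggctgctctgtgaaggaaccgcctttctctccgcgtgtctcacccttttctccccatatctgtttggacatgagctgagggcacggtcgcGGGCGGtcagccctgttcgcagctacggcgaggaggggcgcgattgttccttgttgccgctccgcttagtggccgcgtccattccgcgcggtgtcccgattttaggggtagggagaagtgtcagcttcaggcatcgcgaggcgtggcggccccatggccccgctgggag
PIK3R3: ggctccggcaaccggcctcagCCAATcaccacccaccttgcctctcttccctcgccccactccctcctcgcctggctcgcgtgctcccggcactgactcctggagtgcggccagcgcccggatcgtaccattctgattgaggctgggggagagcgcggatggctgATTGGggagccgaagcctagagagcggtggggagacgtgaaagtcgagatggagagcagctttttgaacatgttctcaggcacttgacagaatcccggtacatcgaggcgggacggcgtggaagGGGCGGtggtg
EPC1: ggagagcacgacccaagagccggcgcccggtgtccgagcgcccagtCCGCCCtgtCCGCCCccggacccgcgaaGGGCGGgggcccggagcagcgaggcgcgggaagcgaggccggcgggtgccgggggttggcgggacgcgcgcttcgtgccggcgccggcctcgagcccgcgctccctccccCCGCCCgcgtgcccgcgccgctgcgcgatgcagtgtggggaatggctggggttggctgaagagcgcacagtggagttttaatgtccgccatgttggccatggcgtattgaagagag
PSMA1: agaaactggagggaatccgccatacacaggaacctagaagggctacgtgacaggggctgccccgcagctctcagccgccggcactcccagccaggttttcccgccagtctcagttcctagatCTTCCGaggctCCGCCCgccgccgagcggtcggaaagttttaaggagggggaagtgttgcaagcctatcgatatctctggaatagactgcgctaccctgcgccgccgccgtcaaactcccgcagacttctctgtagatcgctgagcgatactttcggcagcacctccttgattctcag
TCP11L2: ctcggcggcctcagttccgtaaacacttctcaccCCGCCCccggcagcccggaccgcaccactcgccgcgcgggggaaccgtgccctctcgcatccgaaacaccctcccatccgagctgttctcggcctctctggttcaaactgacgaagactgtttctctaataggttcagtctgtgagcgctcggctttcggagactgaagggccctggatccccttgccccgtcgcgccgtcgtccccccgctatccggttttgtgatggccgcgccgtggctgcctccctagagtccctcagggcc
ATG101: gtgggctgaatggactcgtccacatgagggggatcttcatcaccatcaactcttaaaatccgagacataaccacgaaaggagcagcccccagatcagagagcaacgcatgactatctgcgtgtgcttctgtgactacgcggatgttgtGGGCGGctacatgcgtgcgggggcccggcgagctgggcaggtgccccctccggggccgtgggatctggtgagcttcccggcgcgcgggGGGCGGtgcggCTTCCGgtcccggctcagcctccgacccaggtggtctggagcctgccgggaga
CANX: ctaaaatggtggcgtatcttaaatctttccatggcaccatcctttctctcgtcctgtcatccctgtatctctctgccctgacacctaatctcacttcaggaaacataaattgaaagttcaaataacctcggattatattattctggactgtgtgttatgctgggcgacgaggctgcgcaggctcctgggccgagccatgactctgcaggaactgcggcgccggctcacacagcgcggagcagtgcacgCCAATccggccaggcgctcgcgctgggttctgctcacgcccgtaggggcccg
The EPC1 window held 4 GC boxes and 42 CG dinucleotides at 74.3% GC. The PIK3R3 window held 2 CCAAT boxes and 1 GC box. The PSMA1 and ATG101 windows each held an ETS core beside their GC boxes. CANX had no GC box and 1 CCAAT box, at 55.7% GC.

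Of the BPP peaks, 8928 (50%) overlapped a CTR peak, and 8665 of these overlapped no IgG peak. Shared peaks inside genes made up 33.8% of those 8665 (95% Wilson interval 32.8% to 34.8%), beside 3735 shared peaks at gene ends and 2000 outside genes. Another 4988 BPP peaks lay inside genes by the same rule but overlapped neither a CTR nor an IgG peak (called BPP-only below), and 3231 IgG peaks lay inside genes. Read depth is unknown, so absence of a peak from the CTR list was not read as absence of the mark. All intervals cover counting error only and treat peaks as independent. Defining markers of ovarian carcinoma and epithelium (12 genes), fibroblasts (9), blood (6) and endothelium (4) held no shared peak inside the gene. Of those markers, KRT8 and KRT18 (epithelial keratins), VIM (vimentin) and CD68 had gene-end peaks in both lists of the mark; the other markers did not. None of the study's title genes hosted a shared inner peak. The nearest one lay 46.8 kb from BIN2, 149 kb from HDAC1 and 1423 kb from RPS6, and of these genes HDAC1 and RPS6 had a gene-end peak in both lists.

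The authors' per-peak values that follow describe peaks the rule had already selected by their presence in both lists, and were not tested. Fold is the authors' ratio to a background they do not describe, and −log10 q is the peak caller's score for a q-value. Shared peaks inside genes had a median BPP fold of 4.22 (range 1.83 to 25.2) and a median CTR fold of 4.17 (1.91 to 25.1). Their median BPP −log10 q was 8.49, against 7.25 for the CTR peak. Their median width was 590 bp in BPP and 543 bp in CTR. BPP fold exceeded CTR fold in 52.5% of them, so neither list was uniformly higher. With 1 library per group this share has no replicate error. Across these peaks the BPP and CTR folds ranked alike (Spearman's rho 0.785, n = 2930 peaks, which share both libraries), and −log10 q less so (rho 0.505). By contrast, the values of the neighbouring sets in the BPP list were a median fold of 3.85 for BPP-only peaks inside genes, 5.35 for shared gene-end peaks and 4.82 for shared peaks outside genes.

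**Figure D1:**
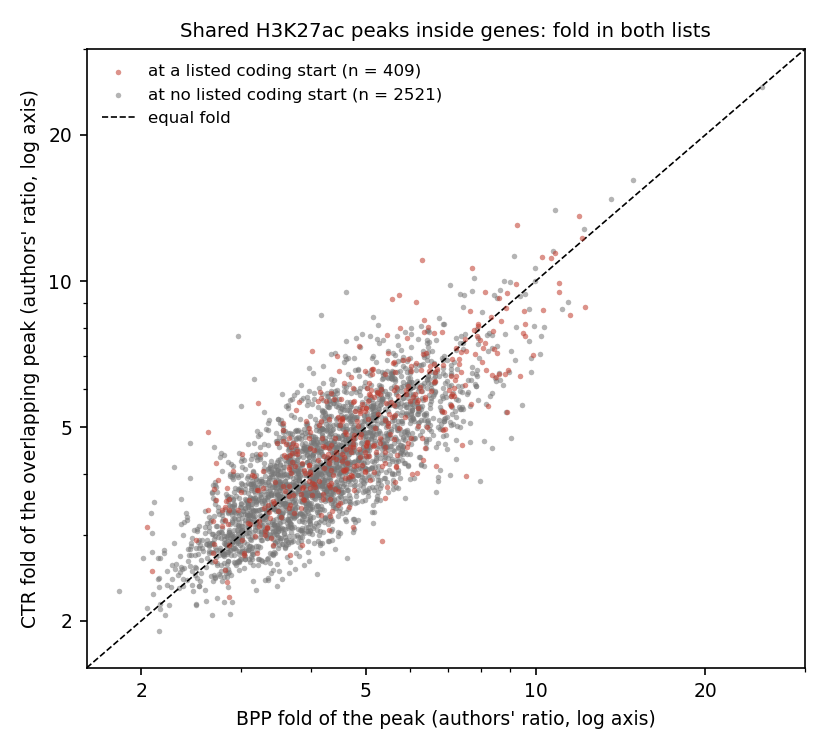
Fold of each of the 2930 shared peaks inside genes in the BPP list (x axis, log scale) and of the overlapping CTR peak (y axis, log scale), with peaks at a listed coding start in red and the others in grey; the dashed line marks equal fold. The points lie along the line from 1.83 to 25.2 in BPP, and the point at the upper right is the SERINC2 peak.

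The pair of peaks at a site usually covered most of the same DNA. The overlap had a median of 402 bp and 65.2% of the wider peak, and 71.3% of the pairs overlapped by at least 50% of both peaks. The summits lay a median of 147 bp apart, and 38.5% lay within 100 bp. Of the shared peaks inside genes, 23 spanned more than 1 CTR peak. At 44 the CTR peak reached a gene-end window, and at 2 the CTR peak overlapped an IgG peak. In 10 equal steps of the BPP list, from high to low −log10 p, they made up 16.6% of the strongest step, 24.6% of the next, where they were most frequent, and 7.46% of the weakest.

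The strongest shared peak inside a gene lay in SERINC2, a member of the serine incorporator family, at chromosome 1, 31431745 to 31432232. Its fold was 25.2 in BPP and 25.1 in CTR, with −log10 q of 787 in BPP and 627 in CTR. The BPP and CTR summits were at the same base, 2.75 kb from the nearer end of the gene, and the nearest IgG peak was 390 kb away. COL23A1, which encodes a transmembrane collagen, held a peak of only 352 bp (chromosome 5, 178585392 to 178585743) with fold 14.9 in BPP and 16.1 in CTR. AK3, a mitochondrial adenylate kinase, held one of 309 bp (chromosome 9, 4713901 to 4714209) with fold 13.6 in BPP and 14.7 in CTR. These narrow, high peaks lay at no listed start. MUC3A, a membrane mucin, held a 1201 bp peak with fold 12.2 in BPP and 12.8 in CTR. BTNL9, a butyrophilin-like gene, had fold 10.4 in BPP and 8.04 in CTR. JAG2, a ligand of NOTCH receptors, held the widest of the 12 strongest, 1629 bp (chromosome 14, 105162378 to 105164006), at a lower fold of 5.06 in BPP and 5.70 in CTR. The other 6 of the 12 lay in PMVK, PIK3R3, CLASP1, EPC1, PSMA1 and ARRDC3, and 5 of those 6, all but CLASP1, lay within 1 kb of a listed start of a coding transcript.

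That feature was not part of the rule and could be compared. Within 1 kb of a listed coding start lay 409 of the 2930 shared peaks inside genes (13.96%, 12.8% to 15.3%), against 236 of 4988 BPP-only peaks inside genes (4.73%, 4.18% to 5.36%). The difference was 9.23 percentage points (95% Newcombe interval 7.87 to 10.6). Its size depended on the peaks used. With both lists cut to fold of at least 5 it was 17.3 points (13.6 to 21.1). A peak whose CTR partner fell below that cut then counted as BPP-only. With shared CTR peaks set against CTR-only peaks inside genes it was 5.76 (4.12 to 7.38). IgG peaks inside genes lay there in 42 of 3231 cases (1.30%), a difference of 12.7 points (11.4 to 14.004). With the summit instead of the whole peak, the shares were 12.5% for shared and 4.15% for BPP-only peaks. Shared peaks were also wider and stronger than BPP-only peaks (median width 590 bp against 402 bp, median −log10 q 8.49 against 5.48), so the comparison was repeated within classes of BPP −log10 q. Among peaks of 2 to under 5 the shares were 7.16% for shared and 3.64% for BPP-only peaks, a difference of 3.52 points (1.11 to 6.73). Among peaks of 5 to under 10 they were 10.6% for shared and 5.03% for BPP-only, and among peaks of 10 to under 20 they were 18.9% for shared and 9.51% for BPP-only. In each of these classes the interval of the difference lay above 0. Above 20, 63 of 234 shared peaks (26.9%) lay at such a start, and only 4 BPP-only peaks were available, none at a start, too few to compare.

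**Figure D2:**
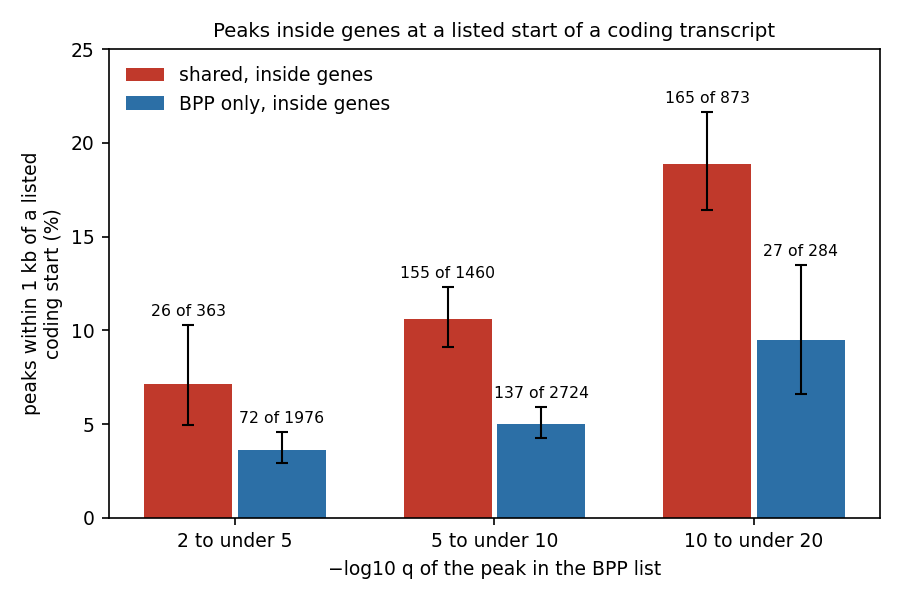
Share of peaks inside genes that lie within 1 kb of a listed coding start (y axis, percent), by −log10 q in the BPP list (x axis), for shared peaks (red, left of each pair) and BPP-only peaks (blue, right); bars are shares, whiskers 95% Wilson intervals, and the counts stand above. The shared peaks are higher in each class, at 7.16%, 10.6% and 18.9% against 3.64%, 5.03% and 9.51%.

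The 409 peaks covered 543 listed starts in 386 genes, a median of 12.4 kb from the outer end of the gene. Of these 386 genes, 243 (63.0%) had neither a BPP nor a CTR peak within 1 kb of the outer start and 87 (22.5%) had both. Over all 15812 coding genes with a strand the shares were 62.4% with neither and 23.9% with both, so the outer starts of these genes were marked about as often as those of coding genes in general. In 144 of the 386 the table lists no start within 1 kb of the outer end. The 409 peaks had a median fold of 4.85 in BPP and 4.76 in CTR. The 2450 shared peaks at no listed coding or lncRNA start had 4.14 in BPP and 4.08 in CTR. Starts were listed for 1680 of the 2008 host genes, so peaks at no listed start may include some in genes without any.

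PMVK, the phosphomevalonate kinase of cholesterol synthesis, carried the strongest of them, at chromosome 1, 154936524 to 154937707. Its fold was 10.7 in BPP and 11.2 in CTR, and the start listed there lay 5.94 kb inside the gene. PIK3R3, a regulatory subunit of phosphoinositide 3-kinase, had fold 11.9 in BPP and 13.6 in CTR at chromosome 1, 46132213 to 46133431, with the summit 9 bp from a start listed 42.1 kb inside the gene. EPC1, a subunit of the TIP60 histone acetyltransferase complex, had fold 10.8 in BPP and 11.4 in CTR (chromosome 10, 32346422 to 32347172). PSMA1, an alpha subunit of the proteasome core, had fold 10.2 in BPP and 11.2 in CTR (chromosome 11, 14519628 to 14520575), 123 kb from the outer start of the gene. For these 4 genes the CTR fold was the higher, by a margin that has no replicate error. ARRDC3, an alpha-arrestin, had fold 10.3 in BPP and 8.71 in CTR, TCP11L2 had 12.1 in BPP and 12.2 in CTR, ATG101, a subunit of the autophagy-initiating ULK1 complex, had 8.62 in BPP and 9.25 in CTR, and CANX, the calnexin chaperone of the endoplasmic reticulum, had 8.86 in BPP and 8.80 in CTR.

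Further down the ranking were peaks in SMC2, a condensin subunit (fold 11.5 in BPP, 8.51 in CTR), and in KDM3A, a demethylase of histone H3 lysine 9 (12.2 in BPP, 8.86 in CTR). KDM4C, another demethylase of that residue, had 7.80 in BPP and 7.07 in CTR, and TXNRD1, the cytosolic thioredoxin reductase, had 5.61 in BPP and 6.81 in CTR. SQSTM1, the autophagy receptor p62, had 4.99 in BPP and 4.07 in CTR, with an IgG peak 2.31 kb away, the nearest among the 16 strongest peaks at inner starts. The part of background in that peak was not tested.

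The listed starts at shared peaks inside genes also differed in sequence from inner starts without called acetylation. Windows at the 386 genes were compared with windows at 2512 genes whose inner listed start touched no BPP or CTR peak, with 1 window of 300 bases per gene. Where a gene had several, the start nearest a peak summit was taken at shared peaks and the first one listed elsewhere. The part of this choice in the differences was not tested. Median GC content was 63.7% at the shared peaks and 55.3% at starts without a peak, and the median number of CG dinucleotides was 22 against 7. A GC box (GGGCGG, either strand) stood in 62.4% of windows at shared peaks and 36.4% of those without a peak, a difference of 26.0 points (20.7 to 31.1). It stood in 58.5% of the 15812 windows of all genes. The ETS core (CGGAAG) stood in 25.9% against 11.3%, a difference of 14.6 points (10.2 to 19.3), with 25.6% over all genes. For these 2 motifs the inner starts under shared peaks had shares near those of coding genes in general.

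The TATA box and the TEAD motif were less frequent there. A TATA box (TATAAA) stood in 4.66% of windows at shared peaks and 13.1% of those without a peak, a difference of −8.39 points (−10.6 to −5.52), with 9.64% over all genes. The TEAD motif (GGAATG) stood in 9.85% against 15.8% (difference −5.92, −8.90 to −2.27), with 11.7% over all genes. The E-box (CACGTG) stood in 9.07% against 5.45% (difference 3.61, 0.96 to 6.997), with 8.87% over all genes. The intervals included 0 for CCAAT (36.3% against 32.4%, all genes 36.3%), the AP-1 motif TGANTCA (6.22% against 8.28%, all genes 5.76%) and the CRE motif TGACGTCA (1.81% against 0.836%, all genes 2.59%). Base composition moved with these shares. Among windows of at least 60% GC the GC box difference was 4.92 points (−1.14 to 10.2) and the ETS difference was 10.4 (4.59 to 16.8). All 8 motifs were searched on both strands, none contains another, and a match is a description of letters only.

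Fewer of the shared peaks inside genes lay near lncRNA starts, and 9.80% lay within 1 kb of an end of any non-coding gene. Within 1 kb of a listed lncRNA start lay 138 shared peaks inside genes (4.71%), against 1.80% of BPP-only peaks inside genes (difference 2.91 points, 2.09 to 3.80). Shared peaks outside genes lay there more often, at 9.20%, a difference of −4.49 points (−6.01 to −3.04). In 71 peaks a lncRNA start was the only listed start. Their median fold was 4.04 in BPP and 3.88 in CTR. The strongest lay in DNM3, a dynamin gene. Another lay in both ITGA1, an integrin alpha subunit gene, and PELO, with fold 9.82 in BPP and 6.50 in CTR. Others lay in ZMYND8, a reader of acetylated histones (3.54 in BPP, 3.51 in CTR), and LRP5, a WNT co-receptor (5.20 in BPP, 4.15 in CTR).

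Small RNA genes lay under few of these peaks, but the cases are specific. A miRNA gene was overlapped by 9 of the 2930 peaks (0.307%), against 6 of 4988 BPP-only peaks (0.120%; difference 0.187 points, −0.016 to 0.470, which includes 0). The CLASP1 peak, in a gene for a protein that stabilises microtubule plus ends, covered RNU4ATAC, the U4atac RNA of the minor spliceosome, with fold 11.1 in BPP and 8.76 in CTR (chromosome 2, 121530093 to 121531115). A peak in SIRT4, a mitochondrial sirtuin, covered RNU4-1, a U4 spliceosomal RNA, with fold 4.33 in BPP and 5.88 in CTR. The summit of that CTR peak lay 1210 bp from the BPP summit, and the overlap was 25.9% of the wider peak. The CTR fold is therefore not a value at RNU4-1 itself. A peak in TMEM107 overlapped SNORD118, a box C/D small nucleolar RNA, with fold 4.09 in BPP and 4.49 in CTR. In KCTD2, 1 peak reached 2 arginine tRNA genes, with fold 4.58 in BPP and 3.83 in CTR. The CTR peak in KCTD2 overlapped TRR-CCT2-1 but did not reach TRR-CCT1-1.

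The DNM3 peak (chromosome 1, 172144338 to 172145318) contained the whole miR-199a-2 hairpin at 172144535 to 172144644, with fold 7.54 in BPP and 5.85 in CTR. A peak in BBC3, which encodes the pro-apoptotic protein PUMA, contained the hairpins of MIR3190 and MIR3191 on opposite strands, with fold 4.85 in BPP and 4.33 in CTR (chromosome 19, 47226793 to 47227914). The mature sequences from RefSeq on GRCh38.p14 are shown for these hairpins, which lay complete in the peaks of highest BPP −log10 q at miRNA genes. Capitals mark the seed, bases 2 to 8.
hsa-miR-199a-3p: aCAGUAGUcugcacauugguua
hsa-miR-199a-5p: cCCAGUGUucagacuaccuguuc
hsa-miR-3190-3p: uGUGGAAGguagacggccagaga
hsa-miR-3191-5p: cUCUCUGGccgucuaccuucca
hsa-miR-3191-3p: uGGGGACGuagcuggccagacag
The 12 mature miRNAs matched at these peaks came from 8 miRNA genes and had 12 different seeds, so no seed family was shared among them. No mature sequence of MIR11401 or MIR661 was among these. Other hairpins overlapped peaks in KDM2B (MIR7107), SLC7A5 (MIR11401), PLEC (MIR661), LASP1 (MIR6779), BCL7C (MIR4519), RBBP8 (MIR4741) and CAPN15 (MIR5587), with BPP folds from 2.46 to 4.89 and CTR folds from 2.18 to 5.41. The BPP peaks in KDM2B, SLC7A5, LASP1, BCL7C and RBBP8 also held the whole hairpin. The paired CTR peaks in KDM2B and PLEC did not reach the hairpin, and the lowest CTR fold, 2.18, is that of PLEC. CUT&Tag peaks do not show whether any of these RNAs was made.

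Position along the gene could be read for the 2478 shared peaks whose host has a strand in the table. Their summits lay in the first 25% of the gene in 32.3% of cases (30.5% to 34.2%), against 26.5% of BPP-only peaks, a difference of 5.82 points (3.55 to 8.11), and against 23.8% of IgG peaks. The last 25% held 18.3% of shared peaks, 23.2% of BPP-only peaks and 25.4% of IgG peaks. In every set the rule left out peaks within 1 kb of a coding gene's end, and its part in these shares was not tested. Without the peaks at listed coding starts the difference over the first 25% from BPP-only peaks was 4.29 points (1.91 to 6.70). With peaks at listed starts kept and both lists cut to fold of at least 5, the difference was 3.63 points (−1.32 to 8.69). With the 5000 strongest peaks of each list it was 0.108 points (−5.41 to 5.65). In these cut lists a peak whose CTR partner fell below the cut counted as BPP-only. They therefore cannot decide whether the difference from BPP-only peaks holds among strong peaks. Counted in kilobases, 23.6% of shared and 22.4% of BPP-only summits lay within 10 kb of the gene's start (difference 1.16 points, −0.92 to 3.28), against 11.98% of IgG summits (difference of shared from IgG 11.6 points, 9.54 to 13.7). Hosts of IgG peaks were longer, with a median of 165 kb against 92.5 kb for shared and 81.8 kb for BPP-only peaks. A fixed 10 kb is a smaller part of a longer gene, and the part of length in this difference was not tested. The median distance from the summit to the nearer end of the host gene was 18.0 kb for the shared peaks, and the farthest lay 693 kb inside.

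**Figure D3:**
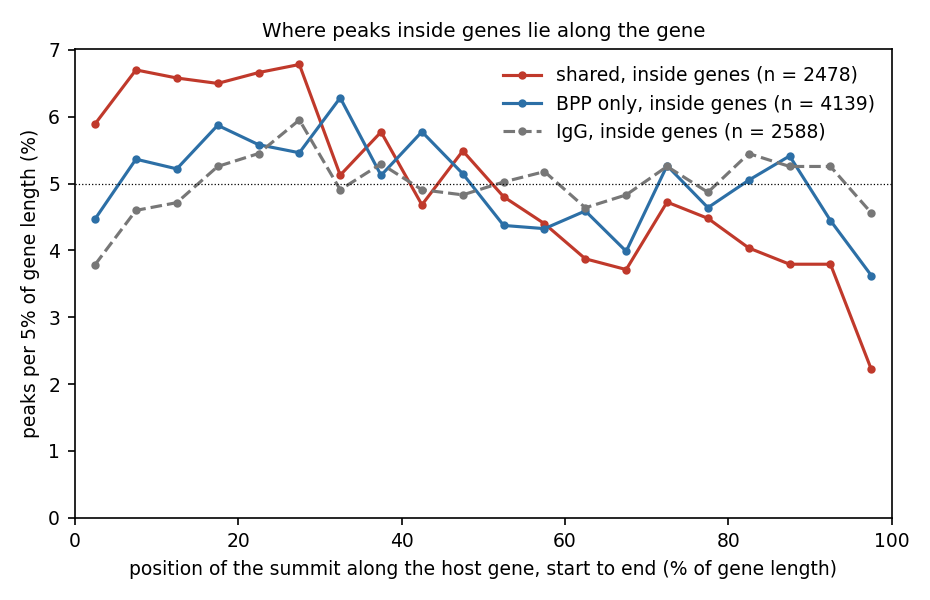
Share of peak summits (y axis, percent) in each 5% step of the host gene from start to end (x axis). Shared peaks inside genes are red, BPP-only peaks blue, and IgG peaks grey and dashed. The dotted line marks an equal share per step. It is not the expectation, because the rule leaves out peaks within 1 kb of gene ends. The shared peaks run from 5.12% to 6.78% per step over the first 40% of the gene and fall to 2.22% in the last step, while IgG peaks stay between 3.79% and 5.95%.

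Peaks inside genes often had neighbours. Another BPP peak lay within 10 kb of 45.5% of the shared peaks inside genes, against 38.3% of BPP-only peaks (difference 7.15 points, 4.90 to 9.40) and 29.2% of shared gene-end peaks (16.2, 13.9 to 18.5). The difference from shared peaks outside genes, at 47.6%, was −2.09 points (−4.92 to 0.74). Another shared peak inside a gene lay within 10 kb in 21.3% of cases. Runs of at least 3, each within 10 kb of the next, numbered 44 and held 153 peaks. The longest run spanned 34.9 kb in TOM1L2, an endosomal trafficking gene (chromosome 17, 17914069 to 17948927), where 6 peaks had folds of 3.46 to 5.22 in BPP and 2.89 to 5.82 in CTR. A run of 8 peaks over 32.0 kb lay in LOC124905135 on chromosome 22, with folds of 2.20 to 4.09 in BPP and 2.05 to 4.15 in CTR. The next longest lay in SLIT2, which encodes a secreted guidance ligand (5 peaks over 27.1 kb), MAP3K14, the NF-κB-inducing kinase (4 peaks over 25.1 kb), and NLGN1, a synaptic adhesion gene (4 peaks over 22.9 kb). Fold in these runs was moderate, at most 7.40 in BPP and 6.09 in CTR.

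The peaks lay in 2008 of 19974 protein-coding genes (10.1%), and 68 of them lay in more than 1. Of the host genes 1486 held 1 peak, 318 held 2, 118 held 3, 38 held 4 and 48 held at least 5. PDE4D, a phosphodiesterase that degrades cyclic AMP, held the most. Its 20 peaks over a gene of 1553 kb had BPP folds of 2.70 to 7.70 (median 3.93) and CTR folds of 2.61 to 9.56 (median 3.57), and 4 lay at listed starts. SLC25A21, a mitochondrial carrier of oxodicarboxylates, held 19 in 495 kb, with median folds of 4.09 in BPP and 3.70 in CTR. NLGN1 held 17, with median folds of 5.14 in BPP and 5.33 in CTR, RBMS3, an RNA-binding protein gene, held 16, and ZFHX3, a homeobox transcription factor gene, held 14. All 5 genes are long, and PDE4D, RBMS3 and ZFHX3 had no gene-end peak in either list. AOPEP, an aminopeptidase gene, held 12, COL5A2, a fibrillar collagen gene, held 11, and RAI1 and SLIT2 held 10 each. RAI1 was the most densely marked of the genes with at least 10 peaks, at 7.69 peaks per 100 kb. IgG peaks inside these genes numbered from 0 (RAI1 and SLIT2) to 4 (ZFHX3), none of them overlapping a shared peak by the rule.

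Host genes were long, with a median of 65.9 kb against 21.3 kb for other coding genes. The share of genes that hosted a shared peak was 1.40% under 10 kb, 7.74% from 10 to 30 kb, 14.2% from 30 to 100 kb, 22.3% from 100 to 300 kb and 19.3% over 300 kb. A gene-end peak in both lists was present in 23.6% of all coding genes. It was present in 28.8% of host genes and 23.0% of other coding genes, a difference of 5.79 points (3.75 to 7.90). Against genes that held BPP-only inner peaks and no shared one, where it was present in 29.2%, the difference was −0.425 points (−3.11 to 2.27). The difference between hosts and other genes moved with length. It was −1.13 points (−7.79 to 8.61) under 10 kb and −0.98 (−5.06 to 3.52) from 10 to 30 kb, 2.63 (−0.80 to 6.21) from 30 to 100 kb, 8.72 (4.71 to 12.9) from 100 to 300 kb and 20.2 (13.01 to 28.2) over 300 kb, where 29.5% of hosts and 9.32% of other genes had both gene-end peaks.

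**Figure D4:**
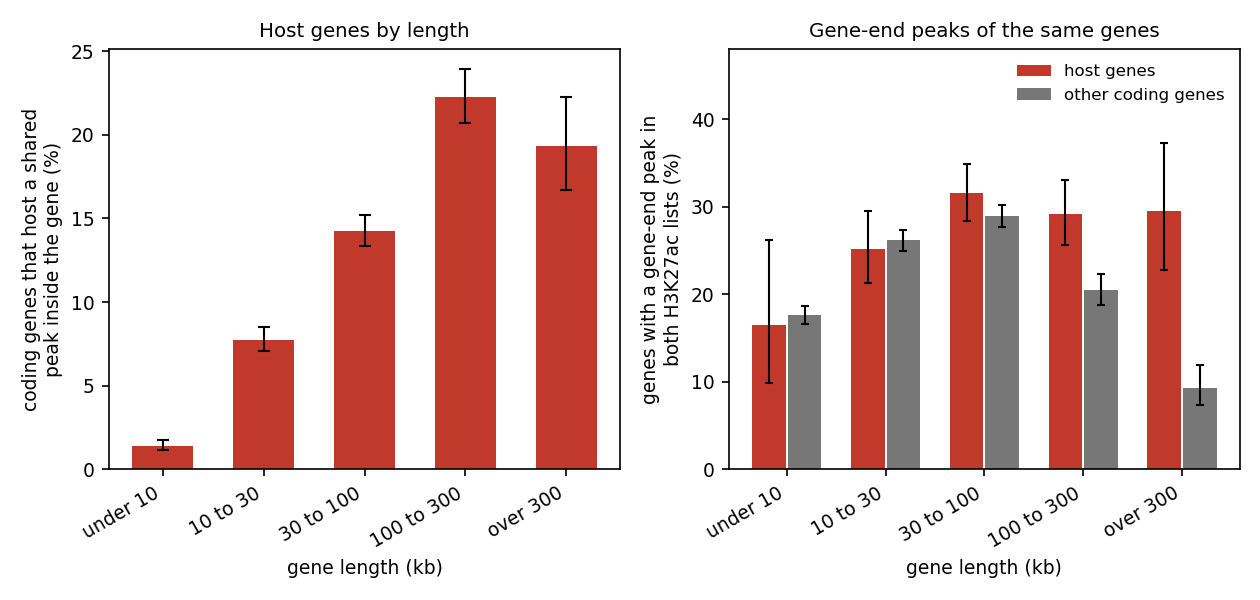
Left, share of protein-coding genes that host a shared inner peak (y axis, percent) by gene length in kb (x axis). Right, share with a gene-end peak in both H3K27ac lists for host genes (red, left of each pair) and other coding genes (grey, right), with 95% Wilson intervals as whiskers; over 300 kb the shares are 29.5% for hosts and 9.32% for other genes.

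Chromosomes differed in density. Per megabase of coding gene span there were 6.73 shared peaks inside genes on chromosome 19, 5.82 on chromosome 22 and 4.62 on chromosome 17, against 0.57 on chromosome 13 and 0.649 on chromosome X. This order followed the whole BPP list, which had 38.7 peaks per megabase of coding gene span on chromosome 19, 4.59 on chromosome 13 and 7.02 on chromosome X. The shared inner peaks made up 17.4% of BPP peaks on chromosome 19, 12.4% on chromosome 13 and 9.24% on chromosome X, beside 16.4% over all chromosomes. Inner peaks were 43.4% of the shared peaks on chromosome 22 (37.5% to 49.5%) and 19.8% of those on chromosome X (14.4% to 26.4%).

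Among the 19 gene lists, hosts were most frequent in solute carriers and lipid metabolism genes, at 20 of 34 against 10.1% of all coding genes. Members of these lists differ in length from other genes, so the share of all coding genes at the list's own lengths (5 length classes) is given beside each count; here it was 13.2%. SLC3A2, the heavy chain of amino acid transporters, had fold 5.00 in BPP and 5.48 in CTR, and SLC1A5, a glutamine transporter, had 4.30 in BPP and 4.22 in CTR, both at listed coding starts. PPARGC1B, a transcriptional co-activator of mitochondrial genes, held 4 peaks, of which the strongest had fold 4.74 in BPP and 4.63 in CTR. RXRA, the retinoid X receptor, held 6. ACACA, FASN, SCD and FADS2, enzymes of fatty acid synthesis and desaturation, and SREBF1 and SREBF2, the transcription factors that drive sterol and lipid synthesis, were also hosts. The BPP and CTR peaks in FASN shared only 8 bp. These shares describe the lists and were not tested.

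Actin cytoskeleton and focal adhesion genes followed, with 25 hosts of 50 (17.9% at the list's lengths). DST, a linker of cytoskeletal filaments, had fold 7.06 in BPP and 5.12 in CTR, CDC42BPB, a kinase downstream of CDC42, had 6.34 in BPP and 7.04 in CTR, and MYH9, non-muscle myosin heavy chain, had 3.66 in BPP and 3.20 in CTR. PTK2, the focal adhesion kinase, held 5 peaks, and ACTN1, PXN and TRIO held 4 each. Of the YAP-TEAD and Hippo genes 11 of 27 were hosts (15.9% at the list's lengths). VGLL4, a TEAD-binding repressor, had fold 5.59 in BPP and 3.90 in CTR, WWTR1, the co-activator TAZ, held 5 peaks with 5.17 in BPP and 3.35 in CTR at the strongest, and LIMD1, a LIM-domain scaffold that binds LATS kinases, had 3.94 in BPP and 3.81 in CTR. YAP1, TEAD1, TEAD3 and TEAD4 were hosts as well.

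The chromatin lists stood above the genome as well. Histone deacetylases and co-repressors had 19 hosts of 45 (14.3% at the list's lengths), chromatin remodellers and methylation enzymes 20 of 53 (17.5%), and acetyltransferases and acetyl-lysine readers 10 of 30 (15.7%). Of the HDAC genes HDAC4, HDAC5, HDAC7 and HDAC9 were hosts, all of them class IIa enzymes, and HDAC1 was not. SIN3B, a scaffold of the SIN3 deacetylase complex, had fold 4.06 in BPP and 4.74 in CTR, NCOR1, a nuclear receptor co-repressor, had 4.61 in BPP and 3.35 in CTR, and CHD3, a NuRD remodeller, had 4.07 in BPP and 3.77 in CTR at a listed start. KDM5B, a demethylase of histone H3 lysine 4, had 7.16 in BPP and 6.83 in CTR, and DNMT3A, a DNA methyltransferase, had 4.03 in BPP and 3.11 in CTR. CREBBP, the acetyltransferase CBP, had 5.26 in BPP and 4.17 in CTR, and ATAD2, a bromodomain ATPase, had 4.62 in BPP and 5.91 in CTR. With fold of at least 5 required in both lists, hosts numbered 545 in place of 2008 over all coding genes, 0 in place of 19 among deacetylases and co-repressors, 1 in place of 20 among solute carrier and lipid genes, and 7 in place of 20 among remodellers and methylation enzymes.

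Signalling lists were nearer to the background. Growth factor receptor, RAS and MAPK genes had 14 hosts of 51 (15.3% at the list's lengths), among them NF1, a RAS GTPase-activating protein (fold 7.65 in BPP, 5.52 in CTR), INSR, the insulin receptor (7.45 in BPP, 7.47 in CTR), RAPGEF1, an exchange factor for RAP1 (5.77 in BPP, 5.60 in CTR), and EGFR with 3 peaks. WNT, NOTCH and TGF-beta genes had 12 of 50 (14.7%), with JAG2, LRP5 and DVL3, a Dishevelled protein (5.36 in BPP, 4.60 in CTR), leading, and SKI, a repressor of SMAD signalling, with 7 peaks. mTOR and S6 kinase signalling genes had 11 of 47 (14.6%). RPTOR, the scaffold of mTORC1, had fold 7.24 in BPP and 7.62 in CTR, and PIK3CD, a catalytic subunit of phosphoinositide 3-kinase, had 4.54 in BPP and 3.68 in CTR, while RPS6 itself held no such peak.

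Stem cell and oncogenic transcription factors had 12 hosts of 62 (13.4% at the list's lengths), led by ID4, an inhibitor of DNA binding (fold 7.33 in BPP, 5.95 in CTR), NFIX (3.81 in BPP, 2.72 in CTR) and PRDM16 with 4 peaks (4.92 in BPP, 5.14 in CTR at the strongest). Mesenchymal, matrix and integrin genes had 7 of 38 (13.5%), with ITGA1, TIMP2, a metalloproteinase inhibitor (4.24 in BPP, 3.55 in CTR), and COL5A1 (5.89 in BPP, 5.85 in CTR). Cell cycle and replication genes had 9 of 50 (10.1%). MCM5, a replicative helicase subunit, had 5.26 in BPP and 4.03 in CTR, with an IgG peak 9.75 kb away. PCNA, the replication clamp, had 7.20 in BPP and 6.26 in CTR, and CDC25C, a mitotic phosphatase, had 6.63 in BPP and 6.22 in CTR, both at listed starts. DNA repair genes had 8 of 49 (14.7%), with PRKDC (7.15 in BPP, 5.88 in CTR; an IgG peak 8.87 kb away), ERCC1 (3.97 in BPP, 4.76 in CTR) and RAD51B, which held 8 peaks (7.58 in BPP, 6.25 in CTR at the strongest). The p53 targets and apoptosis genes had 5 of 36 (10.0%), with BBC3, CASP8, an initiator caspase (4.28 in BPP, 4.42 in CTR), and BID (3.63 in both).

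Few hosts were found elsewhere. Neuronal adhesion and synapse genes had 4 hosts of 35 (11.4%, against 19.2% of all coding genes at their lengths), namely NLGN1, DLGAP1, PTPRN2 and LRP1B. Of the AP-1, NF-κB and stress factors 1 of 36 was a host, MAFG (3.75 in BPP, 3.77 in CTR), against 9.55% at the list's lengths, whereas 18 of the 36 had a gene-end peak in both lists. Cytosolic ribosomal protein genes had 1 of 53, RPL6 (7.03 in BPP, 5.96 in CTR). That is 1.89%, near the 2.00% of all coding genes at their lengths, so the low count is not particular to this list. Of the 53, 35 had a gene-end peak in both lists. Markers of ovarian carcinoma and epithelium had 1 of 23, GRHL2, an epithelial transcription factor (9.82 in BPP, 6.94 in CTR), against 8.52% at the list's lengths. Markers of blood and endothelial cells had 1 of 21, SPI1, a myeloid transcription factor, with a weak peak (3.15 in BPP, 4.05 in CTR), against 10.9% at the list's lengths. The BPP and CTR peaks in SPI1 shared only 9 bp, with summits 972 bp apart. With 50% overlap of both peaks this list had 0 hosts.

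**Figure D5:**
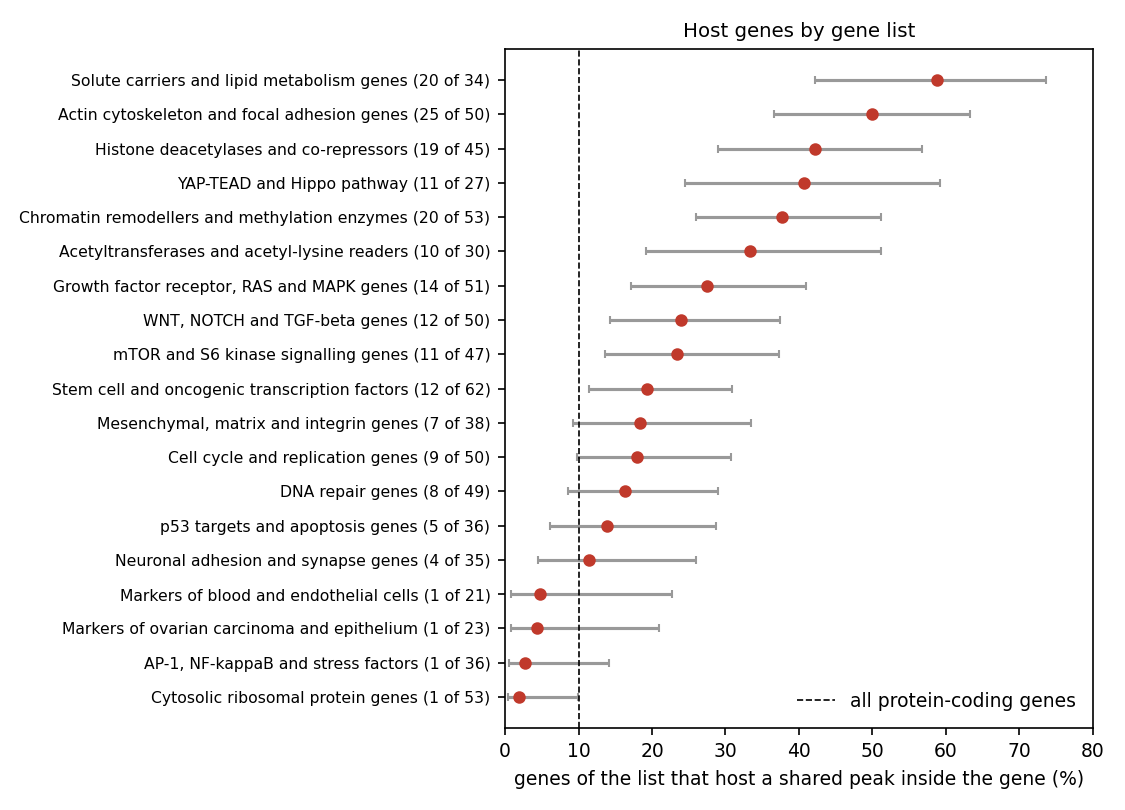
Share of the matched genes of each list that host a shared inner peak (x axis, percent; red points with 95% Wilson intervals), ordered from the highest list at the top; the dashed line is the 10.1% of all protein-coding genes. Solute carriers and lipid metabolism genes (20 of 34) and actin and focal adhesion genes (25 of 50) stand at the top, and ribosomal protein genes (1 of 53) at the bottom. The line takes no account of gene length, and at the lengths of the ribosomal protein genes the share of all coding genes was 2.00%.

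At the edge of the rule, membership rested on few bases. The smallest overlaps with a CTR peak were 2 bp in SCRG1 (fold 4.56 in BPP, 4.29 in CTR), 2 bp in GPHN (5.14 in BPP, 7.02 in CTR) and 3 bp in SPRED2 (3.65 in BPP, 3.10 in CTR). Just outside, the BPP and CTR peaks in SPEN (2.80 in BPP, 3.35 in CTR) and CRYM (4.94 in BPP, 4.22 in CTR) met without overlap, and those in EIF2D (4.80 in BPP, 4.45 in CTR) lay 7 bp apart. Of the BPP-only peaks inside genes 280 had a CTR peak within 1 kb. The peaks nearest to a gene-end window lay in LZTS2, CHLSN and LANCL2, at 2, 3 and 3 bp from it. The lowest −log10 q among the shared peaks inside genes was 2.57, in TCF7L2, a transcription factor of WNT signalling (fold 3.50 in BPP, 4.28 in CTR), followed by 2.64 in NFIB (3.54 in BPP, 4.68 in CTR).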

How the data were processed

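H3K27ac (BPP, CTR) and IgG background were measured by CUT&Tag in 1 A2780 library each, grouped by sample title. The submitters' processing notes name deepTools 3.3.0, Bowtie2 2.4.1, fastp and the build GRCh38.p13 (hg38). How peaks were called, and whether against IgG, is not given in the sources used here. Each library has its own list as deposited by the authors, in which each peak has a score, a fold (a ratio over an undescribed background), a −log10 p-value and a −log10 q-value. The score was not used further. Read depth is unknown, and precision was limited to counting error over peaks. Rows off chromosomes 1 to 22 and X were left out (28 BPP, 37 CTR and 14 IgG).

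Genes came from a RefSeq gene table of GRCh38.p14 (19974 coding genes), and strands and starts from a RefSeq promoter table that lists starts for 15812 coding genes, 1680 of the 2008 hosts among them. Exons and introns were not used here. Coordinates are counted from 1. Shares carry 95% Wilson and differences Newcombe intervals, and no p-value was computed. Tools were scipy 1.17.1, pandas 2.3.3, numpy 2.4.6 and matplotlib 3.10.9 under Python 3.11.15. Overlaps were tested on simulated data and against bedtools 2.31.1. Base composition under peaks, planned if a genome was at hand, was replaced by windows at listed starts.

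The members and the 19 gene lists (789 of 790 genes matched; SLC9A3R1 did not) were chosen with earlier results of these data known. Genes were named by rule: the title genes, hosts of the 12 members of highest BPP −log10 q, the 8 genes with the most members, up to 3 top hosts per list, the 5 longest runs, hosts of up to 8 small RNA genes, and 3 peaks on each side of each edge. The comparisons at listed starts and of motifs, and the other genes named (further hosts of the lists, genes with 10 members, inner and lncRNA starts, further small RNA hosts, the lowest −log10 q), were chosen after their values were seen. A few genes taken by this rule are not reported here.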

Additional observations from a re-analysis of the deposited data

How the results depend on the processing

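No paired analysis was possible because each group had 1 library and the labels give no replicate numbers. For the same reason no library was left out. The width of sequence around summits was not varied because no such sequence was used. Settings for listed starts and the first 25% of the gene were chosen after seeing the data. Among the alternative values of main results, none reversed and 2 lost an interval above 0. The listed-start difference kept an interval above 0 in each of its alternatives but changed in size, from 5.76 points (4.12 to 7.38) for shared against CTR-only peaks of the CTR list to 13.8 with the 5000 strongest peaks and 17.3 with fold of at least 5, against 9.23. Where the lists were cut by −log10 q, fold or rank, BPP-only peaks also held peaks whose CTR partner fell below the cut.

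With 50% overlap of both peaks, 32.4% of shared peaks were inside genes, 14.2% had another within 10 kb and the median BPP fold was 4.35. With gene-end windows of 500 bp and 2 kb, the inside share was 37.6% and 30.5%, hosts with both gene-end peaks 23.4% and 36.2%, the median distance to a gene end 14.6 kb and 21.5 kb, the listed-start share 19.96% and 12.7%, and the share in the first 25% of the gene 37.6% and 29.2%. With −log10 q of at least 5, the inside share was 29.98%, both gene-end peaks 25.2%, neighbours 17.8%, fold 4.45 and listed starts 17.0%. With fold of at least 5, 602 peaks in 545 genes (40 of them in the lists) met the rule, with an inside share of 19.3%, both gene-end peaks 16.2%, neighbours 1.99%, distance 27.9 kb, fold 6.22, listed starts 24.6% and a difference over the first 25% of 3.63 points (−1.32 to 8.69). With the 5000 strongest peaks of each list, 609 peaks in 523 genes gave 20.7%, 13.2%, 9.03%, fold 5.36, listed starts 26.1% and a difference over the first 25% of 0.108 points (−5.41 to 5.65). Counted in CTR peaks the median fold was 4.14. Placed by summit, the inside share was 35.8%, both gene-end peaks 32.5%, distance 16.3 kb, listed starts 17.0% and the first 25% held 34.7%. Start windows of 500 bp and 2 kb, and the summit within 1 kb, gave 11.7%, 18.2% and 12.5%. Non-coding windows of 500 bp and 2 kb gave 7.37% and 14.3%, against 9.80% at 1 kb. The cause of these shifts was not tested. Depth is unknown, so peaks near the calling threshold may be in 1 list only.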
